A study of Mus musculus with 38 samples.

Results

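The calcium-binding proteins and the motor protein prestin of the inner ear were followed through cochlear explants that had been exposed to kainate or left untreated. The set holds 7 genes, namely Calb1, Calb2, Pvalb, Ocm, Vsnl1, S100a1 and Slc26a5 (prestin), chosen by name, out of 16593 genes with a probe. Earlier results of these data were known when they were chosen, so their counts beside the share of all probes are descriptive. All 9 probes that the platform annotation gives to these symbols were read, out of 25697 probes on the array. Calb2 and Slc26a5 have 2 probes each, and the probe of higher mean signal is called the leading probe.

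Explants of the organ of Corti with its spiral ganglion came from C57BL/6 mice of postnatal day 3 to 5, and treated explants received 0.4 mM kainate, a glutamate receptor agonist that destroys the afferent synapse, for 2 h. Control explants were untreated. After 5, 24 or 72 h each explant was cut into a spiral ganglion (SG) fraction, with the cell bodies of the auditory neurons and their glia, and an organ of Corti (OC) fraction, with the hair cells and supporting cells, and the RNA of each fraction was measured on an Illumina bead array. Of the 38 arrays, SG control explants gave 4 (5 h), 2 (24 h) and 3 (72 h), and SG kainate explants 4, 3 and 3 in the same order. OC control explants gave 3, 4 and 3, and OC kainate explants 4, 2 and 3. Each fraction is a mixture of cell types, so fewer cells of a type and less RNA per cell cannot be told apart.

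The fractions were compared by marker lists that contain none of the 7 genes. These lists were chosen with earlier results of these data known, so this is not an independent check. The mean log2 signal of 20 hair cell markers was 9.46 to 9.89 on the OC arrays and 8.20 to 8.99 on the SG arrays, without overlap. The mean of 25 markers of spiral ganglion neurons was 9.73 to 10.26 on the SG arrays at 5 h, above the 9.37 to 9.51 of OC. At 72 h it was 8.90 to 9.20 in SG, below the 9.22 to 9.33 of OC, so the neuronal markers on the list no longer set the SG fraction above the OC fraction at that time. SG control array 2 at 24 h stood toward OC, with a mean Pearson r of 0.730 with the OC arrays. This r was taken over the most variable probes alone, and no other SG array exceeded 0.603. Between 10043 and 12171 probes per array were detected, that is, had a detection p under 0.01 against control beads.

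Hair cells and auditory neurons carry large and rapid calcium loads, at the transduction channels, at the ribbon synapse and along the axon. EF-hand proteins bind this calcium. Some of them act mainly as mobile buffers (the parvalbumins and calbindins), and others as sensors that change the activity of partner proteins (visinin-like proteins and S100 proteins). Oncomodulin (Ocm), also called beta-parvalbumin, is a buffer for which the outer hair cells are known, and alpha-parvalbumin (Pvalb) is found in inner hair cells and in spiral ganglion neurons. Calretinin (Calb2) is used as a marker of inner hair cells and of neurons, and calbindin (Calb1) is another EF-hand buffer of the inner ear. Prestin is a member of the SLC26 anion transporter family and drives the voltage-dependent length changes of outer hair cells.

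Not all of these genes could be measured. Pvalb, S100a1 and the leading probe of Calb2 were detected on 38 of 38 arrays, Ocm on 31 and Vsnl1 on 30. Calb1 was detected on 0 of 38 arrays, with log2 signals between 6.88 and 7.52, and has no level here other than below background. The leading probe of Slc26a5 was detected on 1 of 38 arrays and its second probe on 0. The lowest detected log2 signal on an array lay between 7.95 and 8.36, and values under it have little meaning as levels. S100a1 was at the other end of the range, with log2 signals of 12.89 to 15.01 where the highest value of the table was 15.09, so its differences may be compressed. No background was subtracted, so differences of dim probes such as Ocm and Vsnl1 may be compressed as well. Their folds are folds of signal.

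**Figure D1:**
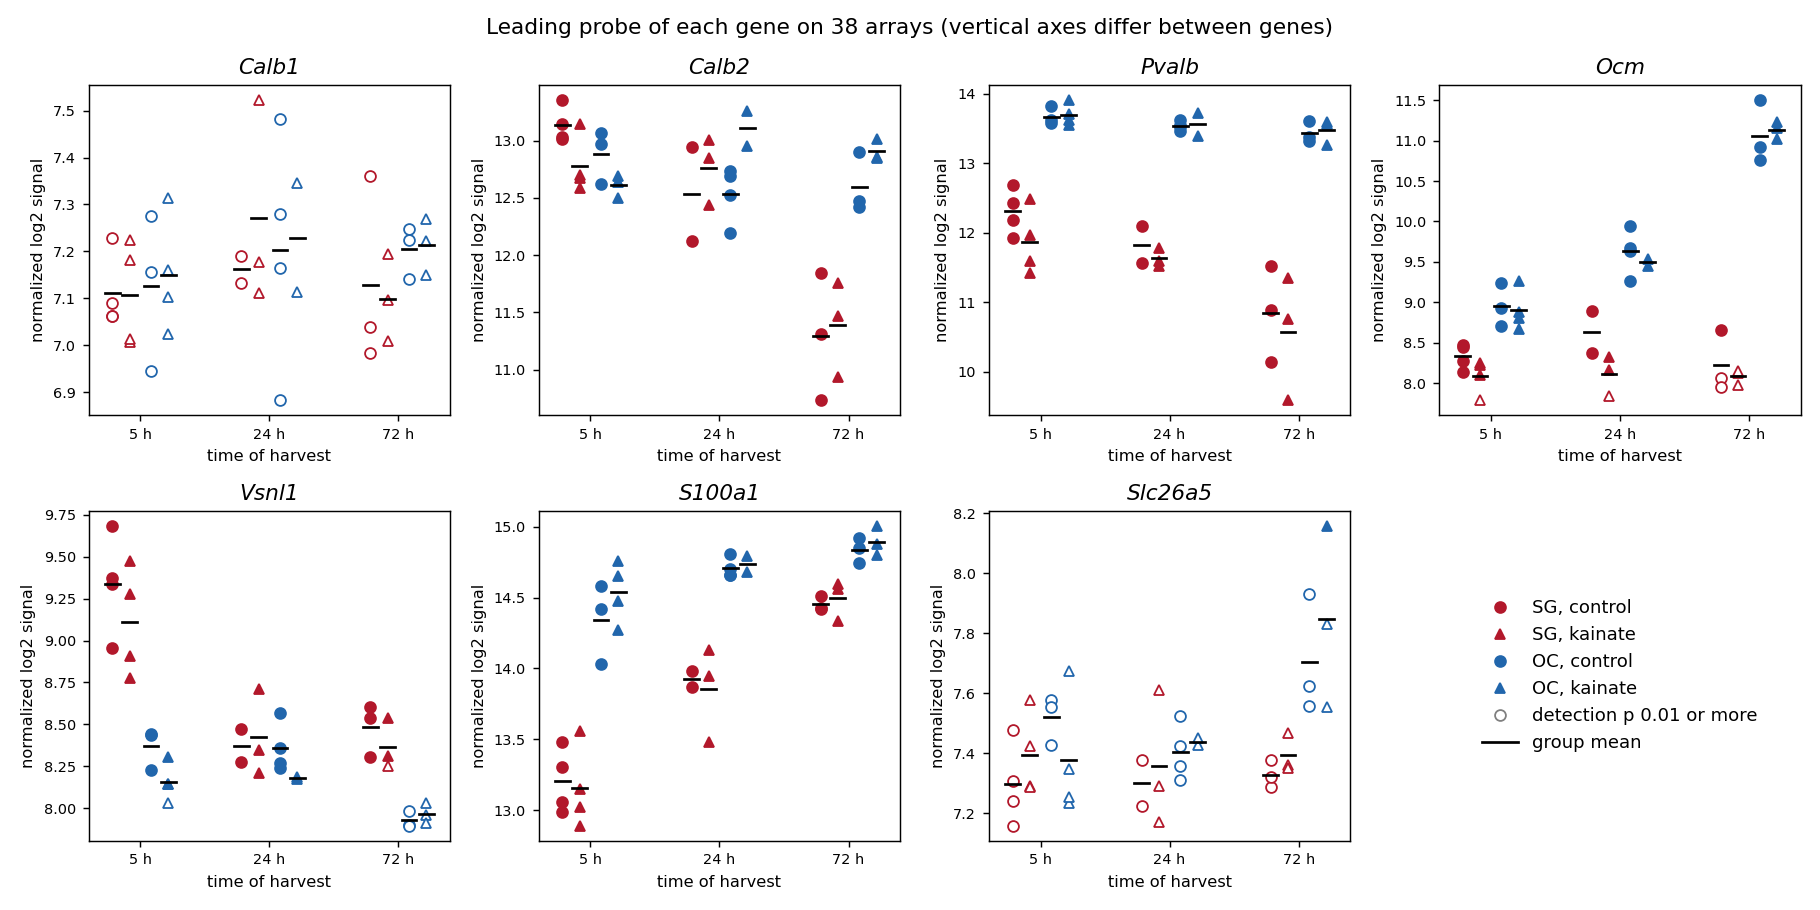
Normalized log2 signal (vertical axis, with its own range for each gene) of the leading probe of each gene on the 38 arrays, by time of harvest (horizontal axis). Red marks SG, blue OC, circles control, triangles kainate, open symbols a detection p of 0.01 or more, and black lines group means. Ocm climbs in OC alone, S100a1 climbs in SG toward OC, and Calb2, Pvalb and Vsnl1 lie lower in SG at 72 h than at 5 h.

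Ocm and Pvalb encode the beta and alpha forms of parvalbumin, and they took different courses, Ocm rising in OC and Pvalb falling in SG. In the GRCm38.p6 annotation of RefSeq, Ocm lies on chromosome 5 from 144019807 to 144050640 and Pvalb on chromosome 15 from 78191112 to 78206400, both on the minus strand. Calb2 lies on chromosome 8 from 110142526 to 110168212, S100a1 on chromosome 3 from 90511034 to 90514330, and Vsnl1 on chromosome 12 from 11325257 to 11436578. Calb1 lies on chromosome 4 from 15881264 to 15906709, and Slc26a5 on chromosome 5 from 21809001 to 21865604. The 250 bases before a RefSeq start site of each are shown because these related genes differed in their course. For Ocm the start site used lies inside the gene as placed above, so its window overlaps the 5′ end of the gene. RefSeq windows were matched for 5 of the 7 genes. Ocm is shown from chr5:144050610-144050859 and Pvalb from chr15:78206401-78206650, each 5′ to 3′ on the minus strand.
Ocm: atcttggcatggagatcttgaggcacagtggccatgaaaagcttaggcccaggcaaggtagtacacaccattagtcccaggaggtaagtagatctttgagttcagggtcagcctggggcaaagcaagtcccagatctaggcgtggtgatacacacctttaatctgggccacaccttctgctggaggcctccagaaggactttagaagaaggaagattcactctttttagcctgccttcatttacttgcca
Pvalb: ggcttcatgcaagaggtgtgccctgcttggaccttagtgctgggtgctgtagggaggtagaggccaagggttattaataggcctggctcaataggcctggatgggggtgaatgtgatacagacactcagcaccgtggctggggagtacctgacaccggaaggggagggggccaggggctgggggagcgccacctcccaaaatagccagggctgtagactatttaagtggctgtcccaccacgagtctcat
The bases G and C made up 49.6% of the Ocm window and 58.4% of the Pvalb window. Each window was searched on both strands for the TATA box (TATAAA), the CAAT box (CCAAT), the GC box (GGGCGG) and the E-box (CANNTG). All had 0 matches in both windows, so no base is in capitals. Of 32851 windows of this length in the table, 12.4% hold the TATA box, 33.8% the CAAT box, 32.7% the GC box and 66.2% the E-box, and the absence of a match says only that these letters do not occur there.

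Ocm rose with time in OC. In OC control explants its log2 signal was 8.92, 8.71 and 9.24 on the 3 arrays at 5 h, then 9.95, 9.26, 9.67 and 9.63 at 24 h, then 10.76, 11.50 and 10.92 at 72 h. The kainate arrays of OC read 8.89, 8.80, 9.26 and 8.67 at 5 h, then 9.54 and 9.45 at 24 h, then 11.15, 11.23 and 11.02 at 72 h. Thus every OC array at 72 h was higher than every OC array at 24 h, and none of the arrays at 24 h fell below the highest control array at 5 h. In SG the signal stayed low, from 7.79 to 8.90, and 12 of 19 SG arrays detected it, but only 1 of 6 at 72 h. The highest SG value, 8.90, came from control array 2 at 24 h, the SG array that stood toward OC.

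Over all probes, 72 h was compared with 5 h within each fraction and treatment, and a probe was called at an adjusted p under 0.05 (limma, Benjamini-Hochberg over all probes). In OC control explants 1 of the 9 probes was called, against 3.70% of all probes. That was Ocm, which rose by a log2 difference of 2.10 ± 0.20 (SE), or 4.29-fold, with an adjusted p of 3.95e-08 (n = 3 and 3). After kainate 3 of 9 were called in OC, against 4.69% of all probes, and Ocm rose by 2.23 ± 0.18, or 4.70-fold, with an adjusted p of 2.35e-09 (n = 3 and 4). Most of the rise came after 24 h, with log2 differences of 1.43 in control and 1.64 in kainate explants between 24 and 72 h (adjusted p of 2.53e-05 and 0.000211), where 0.809% and 0.494% of all probes were called. From 5 to 24 h the differences were 0.67 and 0.59, with adjusted p of 0.252 and 0.455, and 0.0623% and 0% of all probes were called. Within single batches of arrays, as read from the colour bar of the study's clustering picture, the 72 minus 5 h difference was 2.21 and 1.83 in control explants and 2.35 and 2.43 after kainate, from 1 array against 1 each.

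A few other hair cell markers also rose in OC. The mean log2 signal of the 20 hair cell markers was 9.46 to 9.52 on the OC control arrays at 5 h and 9.74 to 9.80 at 72 h, without overlap, and 9.46 to 9.57 and then 9.59 to 9.89 after kainate. Of the 20, 3 were called higher in control explants and 4 after kainate, and 0 lower, against 3.70% and 4.69% of all probes. These included Tmc1 (1.84 and 1.88) and Cabp2 (1.02 and 0.88), named with the control and then the kainate log2 difference. The median of the list was 0.03 in both treatments, where the median of all probes was -0.01. The part of the hair cells in the rise of Ocm was not tested. In SG, Ocm differed by -0.11 in control and -0.01 in kainate explants between these times (adjusted p of 0.791 and 0.987). The difference between the fractions in the change over time was -2.21 ± 0.27 in control explants (adjusted p = 3.15e-06) and -2.24 ± 0.26 after kainate (adjusted p = 8.95e-06).

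Pvalb was strong in both fractions, and always stronger in OC. Its log2 signal on the 19 OC arrays was 13.27 at the lowest, 13.58 at the median and 13.91 at the highest, with little movement over time. In SG control explants it read 12.19, 11.93, 12.43 and 12.68 at 5 h, then 12.10 and 11.56 at 24 h, then 11.53, 10.14 and 10.88 at 72 h. The kainate arrays of SG read 11.59, 11.41, 11.97 and 12.48 at 5 h, then 11.51, 11.59 and 11.78 at 24 h, then 11.35, 9.59 and 10.76 at 72 h. All SG arrays at 72 h lay below those at 5 h of the same treatment, and the 2 lowest, 9.59 and 10.14, carry the replicate number 3 and the same batch colour.

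In SG control explants 5 of the 9 probes were called between 72 and 5 h, 1 higher and 4 lower, against 15.4% of all probes (8.18% higher, 7.26% lower). After kainate the count was again 5, with 1 higher and 4 lower, against 14.6% of all probes (7.25% higher, 7.38% lower). Pvalb fell by 1.46 ± 0.28 on the log2 scale, or 2.75-fold, in control explants (adjusted p = 0.000245, n = 3 and 4), and by 1.30 ± 0.28 after kainate (adjusted p = 0.00105). Without kainate array 3 at 72 h the latter was -0.81, and it kept an adjusted p under 0.05. In OC the differences were -0.24 and -0.22 (adjusted p of 0.852 and 0.817). The difference between the fractions in this change was -1.22 ± 0.41 in control explants and -1.08 ± 0.39 after kainate, with adjusted p of 0.0906 and 0.160. SG and OC arrays of the same time, treatment and number were taken as 1 explant, though no label states this. With the explant so matched as a block the values were -1.09 (adjusted p = 0.0224) and -1.42 (adjusted p = 0.00593). The control value was also called with the batch as a fixed block (-1.28, adjusted p = 0.0250) or a random block (-1.25, adjusted p = 0.0399), in a fit of the control arrays alone (-1.22, adjusted p = 0.0375) and without SG control array 2 at 72 h (-1.56, adjusted p = 0.0254). The kainate value was also called without SG array 1 at 72 h (-1.47, adjusted p = 0.0196). Within single batches Pvalb in SG differed by -0.67 in control explants and by -1.73 and -1.82 after kainate between 72 and 5 h, from 1 array against 1 each.

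Calb2, which encodes calretinin, overlapped between the fractions at first and then fell in SG. In SG control explants the leading probe read 13.14, 13.01, 13.04 and 13.36 at 5 h, then 12.12 and 12.95 at 24 h, then 10.74, 11.84 and 11.31 at 72 h. The OC control arrays read 12.97, 12.62 and 13.06 at 5 h, then 12.53, 12.20, 12.74 and 12.69 at 24 h, then 12.42, 12.90 and 12.47 at 72 h. The fractions overlapped at 5 and 24 h and were apart at 72 h, where every SG array was below every OC array. After kainate SG read 12.67, 12.70, 12.58 and 13.15 at 5 h, then 12.44, 12.85 and 13.01 at 24 h, then 11.75, 10.93 and 11.47 at 72 h. The kainate arrays of OC at 72 h, at 13.01, 12.85 and 12.86, again lay above all of SG at that time. The fall in SG was 1.84 ± 0.21 on the log2 scale by the leading probe and 1.51 ± 0.22 by the second probe in control explants, or 3.58- and 2.84-fold (adjusted p of 8.51e-08 and 4.21e-06). After kainate the log2 differences were -1.39 ± 0.21 and -1.11 ± 0.22 (adjusted p of 1.20e-05 and 0.000373). Within single batches the leading probe differed by -2.41 in control explants and by -1.68 and -1.77 after kainate. In OC it differed by -0.29 in control and 0.29 in kainate explants (adjusted p of 0.681 and 0.592).

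Vsnl1 encodes visinin-like protein 1, a neuronal calcium sensor that moves to membranes when it binds calcium, and it was the only 1 of the 7 genes called higher in SG than in OC. The SG control arrays read 9.68, 8.95, 9.37 and 9.34 at 5 h, then 8.27 and 8.47 at 24 h, then 8.60, 8.30 and 8.54 at 72 h. The drop was already there at 24 h, with a log2 difference of -0.97 ± 0.16 from 5 h (adjusted p = 0.000300, against 1.95% of all probes called), and the values at 24 and 72 h overlapped. After kainate the SG arrays read 9.28, 8.78, 8.91 and 9.47 at 5 h, then 8.21, 8.34 and 8.71 at 24 h, then 8.31, 8.54 and 8.25 at 72 h, so that those at 5 h were again the highest. Between 72 and 5 h Vsnl1 fell by 0.86 ± 0.14 in control explants (adjusted p = 3.95e-05) and by 0.74 ± 0.14 after kainate (adjusted p = 0.000313). In OC it was detected on 6 of 7 arrays at 5 h, on 6 of 6 at 24 h and on 0 of 6 at 72 h, but the log2 difference of -0.44 between 72 and 5 h in control explants had an adjusted p of 0.111. It was called in a fit of the OC arrays alone (adjusted p = 0.0123) and after the neqc background correction (-0.98, adjusted p = 0.0200).

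S100a1, an S100 protein that binds calcium through EF hands, moved the other way in SG. Its log2 signal in SG control explants was 12.99, 13.30, 13.48 and 13.06 at 5 h, then 13.87 and 13.98 at 24 h, then 14.42, 14.51 and 14.43 at 72 h. The kainate arrays gave 13.15, 13.03, 13.56 and 12.89, then 14.13, 13.95 and 13.48, then 14.56, 14.59 and 14.33. The 6 arrays at 72 h lay above all SG arrays at 5 h and 24 h. S100a1 rose by 1.25 ± 0.15, or 2.37-fold, in control explants (adjusted p = 1.43e-07) and by 1.34 ± 0.15, or 2.53-fold, after kainate (adjusted p = 5.28e-08). In OC, where the arrays already read 14.03 to 14.76 at 5 h, the log2 differences were 0.49 ± 0.16 and 0.35 ± 0.15 (adjusted p of 0.0730 and 0.201). The control value was called under 5 alternatives, with the batch as a fixed block (0.56, adjusted p = 0.0102) or a random block (adjusted p = 0.0250), in a fit of the OC arrays alone (adjusted p = 0.0395), without OC control array 3 at 5 h (adjusted p = 0.0444) and among probes detected on at least 2 arrays (adjusted p = 0.0496). The difference between fractions was 0.75 ± 0.21 in control explants (adjusted p = 0.0365) and 0.99 ± 0.21 after kainate (adjusted p = 0.00421). The control value lost its call on leaving out any of 10 of the 13 arrays, with adjusted p up to 0.137, the exceptions being OC array 1 and SG arrays 2 and 3 at 5 h. The OC values lay near the top of the signal range, and the part of this in the difference was not tested.

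**Figure D2:**
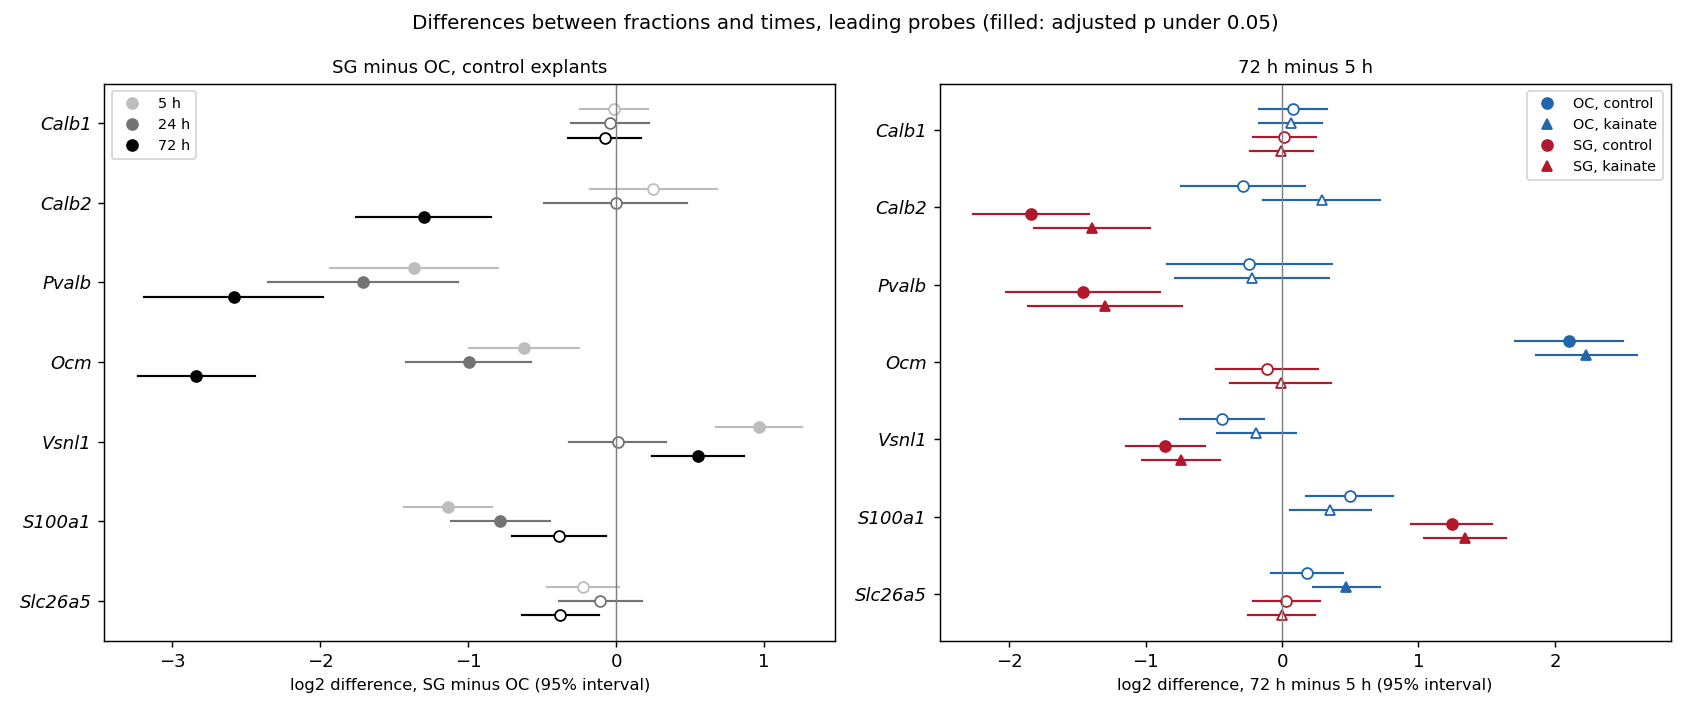
Log2 differences with 95% intervals (horizontal axes) for the leading probe of each gene (vertical axes): SG minus OC in control explants at 5, 24 and 72 h on the left, and 72 minus 5 h in each fraction and treatment on the right. Filled symbols have an adjusted p under 0.05. For Ocm the difference between the fractions goes from -0.62 at 5 h to -2.84 at 72 h, and for S100a1 from -1.14 to -0.39.

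The change over time thus differed between SG and OC for 4 of the 9 probes in control explants, against 4.18% of all probes, and for 4 of 9 after kainate, against 2.96%. In both treatments these were Ocm, both probes of Calb2 and S100a1. The values of the 2 probes of Calb2 were -1.55 and -1.13 in control explants (adjusted p of 0.00174 and 0.0316), and -1.68 and -1.39 after kainate (adjusted p of 0.000697 and 0.00659). Without moderation of the variances S100a1 and the second probe of Calb2 were not called in control explants (adjusted p of 0.0595 and 0.0610), and the latter also lost its call on leaving out any of 8 of the 13 arrays, with adjusted p up to 0.111. S100a1 in control explants was also not called after the neqc background correction (0.76, adjusted p = 0.0508).

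The falls in SG were accompanied by a fall of the neuronal markers. Of 25 markers of spiral ganglion neurons, 17 were called lower and 1 higher in SG control explants between 72 and 5 h, with a median log2 difference of -0.93. After kainate, 16 were lower and 2 higher, with a median of -0.62. The largest falls among these markers were -3.17 in control explants and -2.98 after kainate, both of the neurofilament gene Nefm, and the falls of Calb2, Pvalb and Vsnl1 lay inside the range of the markers. Hair cell markers in SG had medians of 0.23 and 0.32 over the same interval, with 2 and 5 called higher and 0 lower. Of 10 markers of Schwann and satellite glia in SG control explants, 1 was higher and 3 lower, with a median of -0.21. After kainate 1 was higher and 4 lower (median -0.21). Of 17 markers of supporting cells and epithelium in SG, 3 were higher and 1 lower in control explants (median 0.06). After kainate 4 were higher and 1 lower (median 0.20). Of 12 fibroblast markers 1 was higher and 3 lower in control explants (median -0.35), and 1 and 2 after kainate (median -0.31). Of all probes in SG, 8.18% were called higher and 7.26% lower in control explants, and 7.25% and 7.38% after kainate. The part of the cell types in the changes of the 7 genes was not tested.

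**Figure D3:**
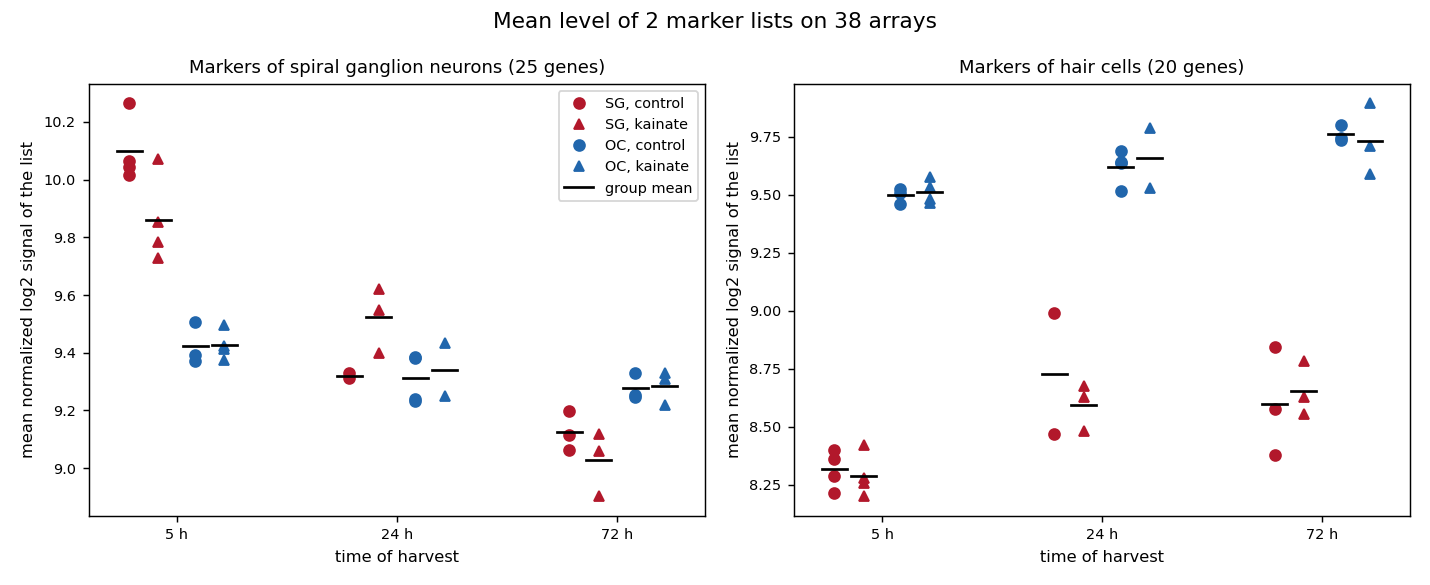
Mean normalized log2 signal (vertical axes) of 25 markers of spiral ganglion neurons and of 20 hair cell markers on the 38 arrays, by time of harvest (horizontal axes), with the same symbols as in the plot of the 7 genes. The neuronal list falls in SG from 9.73 to 10.26 at 5 h to 8.90 to 9.20 at 72 h, and the hair cell list stays higher in OC than in SG at each time.

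When the fractions of control explants were compared over the 3 times together, 7 of the 9 probes were called, 1 higher and 6 lower in SG, against 23.1% of all probes. The log2 difference of Pvalb was -1.89 ± 0.17, a signal 3.70-fold lower in SG (adjusted p = 2.00e-10, n = 9 and 10), and that of Ocm -1.49 ± 0.11, or 2.80-fold lower (adjusted p = 3.83e-12). S100a1 differed by -0.77 ± 0.09 (adjusted p = 3.93e-08), and Vsnl1 by 0.51 ± 0.09 (adjusted p = 2.64e-05). After kainate 7 of the 9 were called, against 23.8% of all probes, with -2.22 for Pvalb, -1.75 for Ocm, -0.89 for S100a1 and 0.53 for Vsnl1. Of 17 markers of supporting cells and epithelium, 15 were lower and 1 higher in SG by the same comparison, with a median of -0.76, and of the 20 hair cell markers 14 were lower and 1 higher, with a median of -0.84. By time, the difference for Ocm was -0.62 at 5 h, -0.996 at 24 h and -2.84 at 72 h, and for Pvalb -1.37, -1.71 and -2.58. All 6 were called, where 13.7% of all probes were called at 5 h and 7.84% at 24 h, and 5.85% were called lower at 72 h, but Ocm lost its call at 5 h without OC control array 3 (-0.48, adjusted p = 0.143) or SG control array 3 (-0.56, adjusted p = 0.0634), and at 24 h without SG control array 3 (-0.73, adjusted p = 0.154). For S100a1 it was -1.14, -0.78 and -0.39, the last with an adjusted p of 0.116, and 0.0382 with the explant, as matched by number, as a block.

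For Calb2 the average of -0.35 and -0.40 by its 2 probes came from 72 h, where they differed by -1.30 and -1.13 (adjusted p of 6.69e-05 and 0.000640). At 5 h the leading probe differed by 0.25, and at 24 h the means were 12.53 in SG and 12.54 in OC (adjusted p of 0.561 and 0.997). Without SG control array 2 at 24 h the averages were -0.21 and -0.22 and were not called (adjusted p of 0.322 and 0.284), and the leading probe lost its call on leaving out any of 12 of the 19 control arrays. The leading probe was also not called with neqc, the batch as a fixed block or array weights (adjusted p of 0.0556, 0.0545 and 0.0641). Nor was it called in a fit of the control arrays alone or without moderation of the variance (adjusted p of 0.0733 and 0.0717). For Vsnl1 the difference was 0.97 at 5 h, 0.01 at 24 h and 0.55 at 72 h. The last is at least 1.31-fold, since none of the OC control arrays detected Vsnl1 at 72 h. It was called, where 6.18% of all probes were called higher in SG at that time, but not without SG control array 2 (0.49, adjusted p = 0.0596). At 72 h after kainate none of the SG arrays detected Ocm, and it was at least 7.50-fold lower in SG than in OC (adjusted p = 2.94e-12), where 5.56% of all probes were called lower. These bounds set the mean of the brighter group against, on each array of the dimmer group, the lowest signal among detected probes or the probe's own signal if higher.

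Prestin stayed at background. The leading probe of Slc26a5 read 7.23 to 8.16 on the OC arrays and 7.16 to 7.61 on the SG arrays, and its single detected value, 8.16, came from kainate array 2 of OC at 72 h. On average over the control explants it differed by -0.24 ± 0.07 between SG and OC (adjusted p = 0.0180), with no array of either fraction detecting it, and the second probe by -0.12 (adjusted p = 0.198). The first of these lost its call without OC control array 2 at 72 h (-0.20, adjusted p = 0.0557) or SG control array 3 at 24 h (-0.21, adjusted p = 0.0810). In OC after kainate both probes were called higher at 72 h than at 5 h, by 0.47 and 0.38 (adjusted p of 0.0165 and 0.0224). Without the array that detected it these were 0.31 and 0.25, with adjusted p of 0.204 and 0.248. The leading probe was also not called without OC kainate array 3 at 5 h, nor the second probe without arrays 1 or 2 at 5 h or array 3 at 72 h. The control explants gave 0.18 and 0.22 (adjusted p of 0.624 and 0.364). No fold change of the transcript can be read from probes below background.

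The study asked how kainate changes expression in each fraction. In the fit without a replicate block, none of the 9 probes passed an unadjusted p of 0.005, the threshold of the study, in any of the 6 comparisons of kainate with control (limma). At this threshold the share of all probes called was 0.389%, 1.10% and 0.179% in SG at 5, 24 and 72 h, and 0.136%, 0.272% and 0.257% in OC. Of the 54 values for the 9 probes, 2 had an unadjusted limma p under 0.05, against 3.67% of all probes over the same comparisons, and the smallest adjusted p was 0.647. The log2 differences ran from -0.52 to 0.57, with 95% intervals between -0.97 and 1.05, and with these numbers of arrays differences inside the intervals could not be told from the spread. The difference of the kainate effect between SG and OC was called for 0 of 27 values, against 0.198%, 0.370% and 0.163% of all probes at 5, 24 and 72 h. At an unadjusted limma p under 0.05 the count was again 0, against 3.12% of all probes.

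The values with the smallest unadjusted p came from the smallest groups. Calb2 in OC at 24 h read 12.96 and 13.26 on the 2 kainate arrays and 12.53, 12.20, 12.74 and 12.69 on the 4 control arrays, a log2 difference of 0.57 (95% interval 0.09 to 1.05, adjusted p = 1.00). In a fit of the OC arrays alone it passed the unadjusted threshold. The second probe of Calb2 read 9.46 and 9.91 against 9.55, 9.0, 9.56 and 9.69, and overlapped. Ocm in SG at 24 h read 8.17, 7.84 and 8.32 after kainate and 8.90 and 8.37 in control explants, a difference of -0.52 (95% interval -0.97 to -0.08, adjusted p = 0.647). The higher control array is the one that stood toward OC. In SG at 5 h the differences were -0.36 for Calb2, -0.44 for Pvalb and -0.23 for Vsnl1, with overlapping arrays and adjusted p of 1.00 each, beside a median of -0.24 for the neuronal markers, 4 of 25 of which were called lower, against 0.389% of all probes.

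Kainate and control arrays of the same number deviated together in SG at 5 h, where all 4 pairs correlated over 0.1, and in OC at 5 h, where all 3 pairs did. The control explants were different from the treated ones and no label pairs the numbers, so this pairing was chosen from these correlations. With the number as a block, 1 of the 9 probes passed the unadjusted threshold in SG at 5 h, against 0.728% of all probes, or 187 probes in place of 100. That was Pvalb, which read 12.19, 11.93, 12.43 and 12.68 on control arrays 1 to 4 and 11.59, 11.41, 11.97 and 12.48 on the kainate arrays of the same number. It was lower after kainate in 4 of 4 pairs, by a log2 difference of -0.44 ± 0.09, but missed the threshold after adjustment over all probes (adjusted p = 0.0993). Both probes of Calb2 were also lower in each pair, with block differences of -0.36 and -0.33 (unadjusted limma p of 0.0162 and 0.0174). Vsnl1 was lower in pairs 1 to 3 and higher by 0.13 in pair 4 (block difference -0.23, unadjusted limma p of 0.0390). Neither gene passed the unadjusted threshold. In OC at 5 h 0 of the 9 probes passed with the block, against 0.261% of all probes, or 67 in place of 35.

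**Figure D4:**
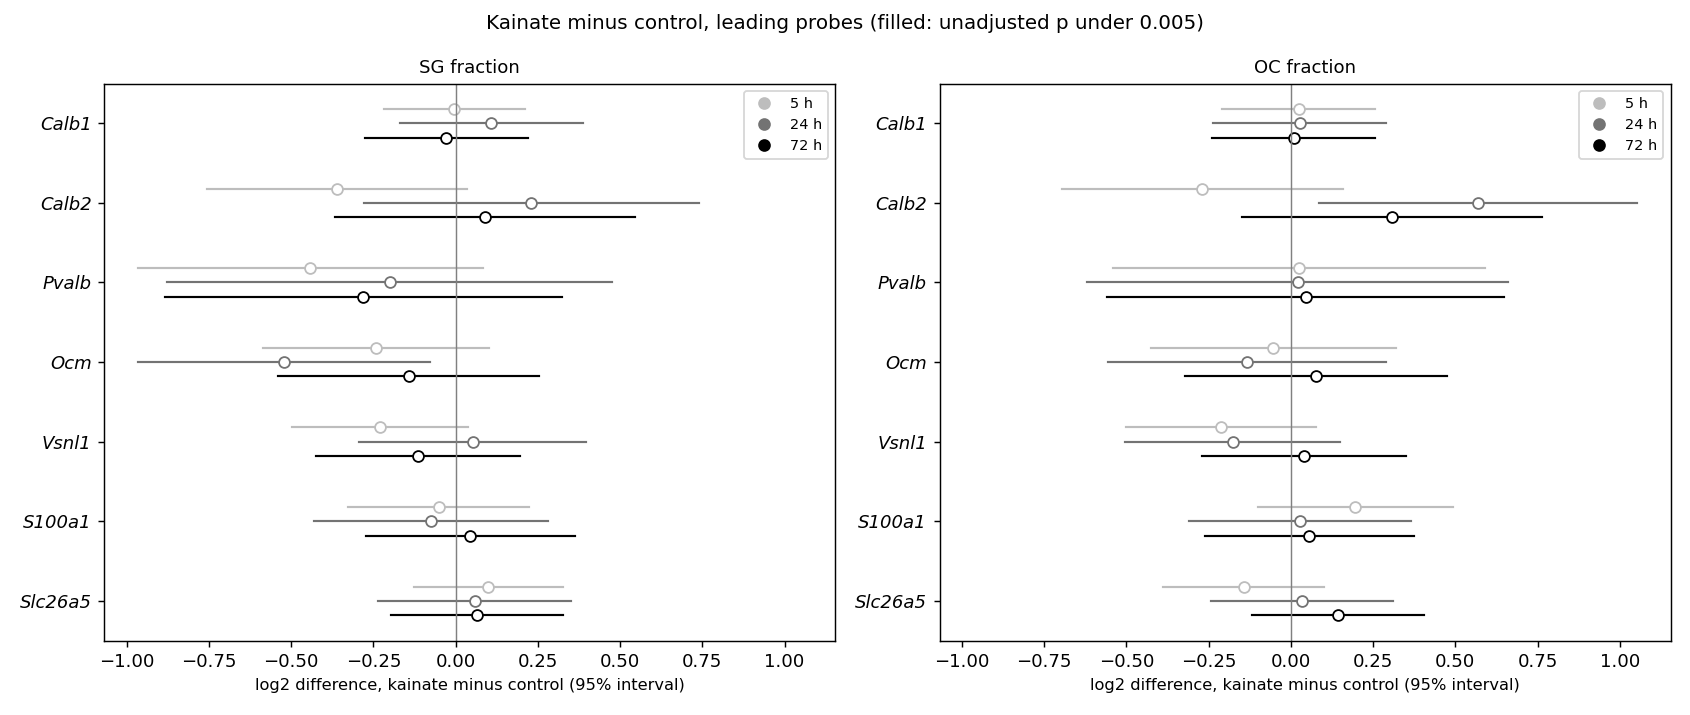
Log2 differences between kainate and control explants with 95% intervals (horizontal axes) for the leading probe of each gene (vertical axes) at 5, 24 and 72 h, SG on the left and OC on the right. A filled symbol would mark an unadjusted p under 0.005, and all symbols are open. The values lie between -0.52 for Ocm in SG and 0.57 for Calb2 in OC, both at 24 h.

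Related genes outside the set were counted on lists by family, with the probe of highest mean signal standing for a gene. Of 45 other EF-hand buffers and sensors with a probe, 10 were higher and 8 lower in SG than in OC in control explants, against 23.1% of all probes, with a median of -0.01, where that of all probes was -0.01. Tesc (tescalcin), an EF-hand protein that binds a sodium-proton exchanger, differed by -2.15 on the log2 scale, and Caln1 (calneuron 1) was higher by 1.15. Between 72 and 5 h in SG control explants 6 rose and 6 fell, against 15.4% of all probes. Caln1 rose by 1.14, and the neuronal sensor Hpca (hippocalcin) fell by 1.23, a fall in the same direction as that of Vsnl1, which belongs to the same sensor family. Hpca was detected on 14 arrays. In OC control explants 2 rose and 1 fell, against 3.70% of all probes, among them the hair cell sensor Cabp2, which rose by 1.02.

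Of 14 other S100 genes, 3 were higher and 2 lower in SG, against 23.1% of all probes called in that comparison. S100a13 shared the direction of S100a1, at -1.45 between SG and OC and with rises of 0.92 in SG and 0.78 in OC control explants between 72 and 5 h. S100a16 went the other way between the fractions, at 0.72. Of 9 other SLC26 genes, 2 were higher in SG and 0 lower, again against 23.1%, and 3 of the 9 were detected on any array. Slc26a4 (pendrin), the iodide and bicarbonate exchanger of the inner ear, was detected on 38 of 38 arrays and was higher in SG by 2.21. It rose by 3.04 in SG and by 1.32 in OC control explants between 72 and 5 h.

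Of 20 calcium pumps and exchangers, 3 were higher and 7 lower in SG, where 23.1% of all probes were called. Atp2a3, a calcium pump of the endoplasmic reticulum, differed by -2.36 between SG and OC and rose between 72 and 5 h by 1.72 in OC and by 1.03 in SG control explants. Atp2b2, the plasma membrane calcium pump of hair bundles and neurons, was higher in SG by 0.50 and rose there by 0.69. After kainate, 2 of the 45 EF-hand genes passed an unadjusted p of 0.005 in SG at 5 h, both lower, against 0.389% of all probes. These were Calm2 (-0.45), one of the calmodulin genes, and Necab1 (-0.29), which was detected on 0 arrays. In OC at 72 h Slc26a4 was higher after kainate by 1.18 and passed that threshold, as did 0.257% of all probes, with an adjusted p of 1.00.

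The genes whose signals ran most like those of the 7 were sought among the genes detected on at least 10 arrays, by Pearson r over the 38 arrays, which share fractions and times. For Ocm they were Tmc1 (r = 0.948), a subunit of the hair cell transduction channel, Hsd17b7 (0.921) and Nrip3 (0.906). For Pvalb they were Acot7 (0.971), Mmp24 (0.967) and Mreg (0.954), and for S100a1 Prr15l (0.934), Eps8l2 (0.933) and Cldn23 (0.932). For Vsnl1 they were B3gat1 (0.917), Cpne4 (0.914) and Astn1 (0.913), and for Calb2 Jakmip1 (0.875), H1f10 (0.864) and Fbxw7 (0.836). The highest r for Slc26a5 was 0.687 and for Calb1 0.506, both from signals near background. Within the 19 SG arrays, S100a1 had an r of -0.83 with Calb2, -0.82 with Vsnl1 and -0.75 with Pvalb, and in the 19 OC arrays Ocm had an r of 0.71 with S100a1 and -0.65 with Vsnl1.

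The 12 groups were set in order of their means for each probe, and neighbouring groups were compared for overlap. Over all probes 1.87% of the neighbouring pairs did not overlap, and 17.1% of the probes had 1 or more such pairs. For Ocm 2 of the 11 pairs were apart. For Pvalb 1 of 11 pairs was apart, between the lowest OC group and the highest SG group, which are separated by 1.13 in their means. For Vsnl1 3 pairs were apart, for S100a1 2 and for each probe of Calb2 1. For Calb1 and both probes of Slc26a5 there were 0.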

How the data were processed

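Total RNA of 38 SG and OC fractions was hybridised to Illumina mouse bead arrays, 1 array per fraction. The authors deposited a raw intensity and a detection p-value per probe, and a table of log2 values. The deposited log2 values equalled the quantile-normalized log2 of the raw intensity to within 4.99e-09, without background subtraction, and were used unchanged. A probe was called detected where the deposited p-value for detection was under 0.01. The median raw intensity per array was 191 to 284, and the number of arrays limits the precision.

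Groups were taken from the sample titles, and nothing states that arrays of a group came from separate litters, so p-values measure the spread between these explants. One mean for each of 12 groups was fitted to 38 arrays with limma (version 3.58.1 in R 4.3.3, eBayes, 26 residual and 5.36 prior degrees of freedom), with Benjamini-Hochberg adjustment over 25697 probes. Differences between fractions and times were called at an adjusted p under 0.05, and kainate effects at an unadjusted p under 0.005. Comparisons of kainate and of time share groups. Probes were named from the platform annotation, which gives 1 symbol to 23978 probes and none to 1719. All probes of the 7 genes were named, up to 3 genes of largest difference in each direction could be named from a family list, and 3 genes of highest r for each of the 7. The members and lists were chosen with earlier results of these data known.

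Deviations from the group means of SG and OC arrays with the same time, treatment and number correlated over 0.1 in 16 of 16 pairs (0.165 to 0.575). The methods state that each explant was cut into both fractions, and this pairing was tried as a block. No label states that equal numbers mean the same explant, so the match rests on the numbers and these correlations. Kainate and control arrays of the same number correlated over 0.1 in 11 of 15 pairs. These included all 4 in SG at 5 h and all 3 in OC at 5 h, and they were taken as paired there alone. The methods describe the control explants as different from the treated ones, and no label pairs their numbers. The pairing of kainate with control thus rests on these correlations alone. Alternatives were the neqc background correction, probes detected on at least 2 arrays, the replicate block, 5 batches read from a colour bar in the study's clustering picture (fixed or random), fewer samples in the fit, array weights, no moderation of the variance, and leaving out each array. On simulated data for 72 minus 5 h in SG control explants, over 25697 probes, 39 of 66 probes changed by 0.5, 63 of 67 changed by 1 and 66 of 67 changed by 2 on the log2 scale were recovered. The simulated noise was independent between arrays and all other probes were unchanged, unlike in the data. These shares are therefore not the power of the real comparison.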

Additional observations from a re-analysis of the deposited data

Results flagged for a closer look

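The change between 72 and 5 h differed between SG and OC by the test of that difference. In control explants the log2 value (SG minus OC) was -1.55 and -1.13 for the 2 probes of Calb2, -2.21 for Ocm and 0.75 for S100a1. After kainate it was -1.68 and -1.39 for Calb2, -2.24 for Ocm and 0.99 for S100a1.

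In 3 of the 36 combinations of a probe and a group of 4 arrays, 1 array stood far from the other 3, where chance gives about 5%. These combinations share arrays and are not independent. The second probe of Calb2 read 10.12 on SG kainate array 4 at 5 h, with the others at 9.40 to 9.51. Calb1 read 7.23 on SG control array 3 at 5 h and the second probe of Slc26a5 read 7.42 on SG control array 2 at 5 h, both below detection.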

How the results depend on the processing

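Of the values for single probes under alternatives, 4263 stayed on the same side of the threshold, 87 lost a call and 39 gained one. Among values called in the main fit, 0 turned direction. The direction of values not called there was not counted, and some of them changed sign. Of the 9 probes, those called between 72 and 5 h in OC control explants numbered 1, and 2 with neqc, with probes detected on at least 2 arrays and with the batch as a fixed or random block, 3 in a fit of OC arrays alone, and 1 to 2 on leaving out an array. In OC after kainate the 3 became 1 among probes detected on at least 2 arrays, and 1 to 3 on leaving out an array. The 4 that differed between fractions in this change in control explants became 2 without moderation of the variance, and 2 to 4 on leaving out an array. The 7 that differed between SG and OC in control explants became 5 to 7, and the 5 of SG in each treatment stayed 5. For kainate in OC at 24 h the 0 became 1 in a fit of OC arrays alone (Calb2). The causes were not tested.

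With the replicate number as a block, 7 probes differed between SG and OC in control explants and 5 in the change over time (with Pvalb). Between 72 and 5 h in OC after kainate 2 were called. That last block joined arrays of the same number across times, though the explants at each time were different and no label pairs them. The kainate block in SG at 5 h called 1 probe, Pvalb (-0.44), at the unadjusted threshold. In the comparisons where kainate and control were not taken as paired, the kainate block called 0 of the 9. Over all probes it called 267 instead of 46 in SG at 72 h and 147 instead of 282 in SG at 24 h. Calb1 and Slc26a5 lay at background, where signal limits any statement.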
